A study of Homo sapiens with 2 samples.

Results

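The 10 genes described here belong to the ETS family of transcription factors and were chosen by name: ELF1, ELF2, ELF3, ELF4, ELF5, EHF, SPDEF, ETS1, ETS2 and ELK3. All 10 were found among the 26506 genes of the deposited tables, and 8 reached 1 CPM (counts scaled to a common library size) in at least 1 library. They were measured in polyadenylated RNA of 1 established line of the corneal surface epithelium (ATCC CRL-11515), of human origin. Cells grew for 72 hours in keratinocyte serum-free medium (KSFM), or in a special medium of DMEM/F12 that held calcium chloride at 1 mM, fetal bovine serum at 10%, EGF at 10 ng/mL and an antibiotic and antimycotic mix. RNA of 3 cultures was pooled into 1 library per medium, so there is no replicate spread, no test and no p-value, and the parts of the medium cannot be told apart. Because these are bulk libraries, fewer cells of a type and less RNA per cell cannot be told apart either.

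ETS factors share a winged helix-turn-helix DNA-binding domain, the ETS domain, which reads a GGAA core. ELF3, ELF5 and EHF form the epithelium-restricted ESE group, and SPDEF is a related factor of secretory epithelia. EHF is known as a factor of corneal epithelial differentiation, and ELF3 as one that is induced in epithelia by inflammatory signals and during differentiation. ELF1, ELF2, ELF4, ETS1 and ETS2 are widely expressed activators, ETS1 and ETS2 being targets of ERK phosphorylation. ELK3 is a ternary complex factor, which binds DNA with the serum response factor SRF and represses until ERK phosphorylates it.

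ELF3 and EHF were the members past the 2-fold rule, and both were higher in the special medium. The rule asks for 1 CPM in 1 of the libraries, a difference of 2-fold or more, and a 95% interval that leaves out equality. ELF3 had the larger ratio and became the most abundant ETS transcript. The other 6 measured members, ELF2, ETS2, ELF4, ETS1, ELF1 and ELK3, lay between 1.58-fold higher and 1.12-fold lower. SPDEF was scarcely detected, and ELF5 was not detected. Thus 2 of 8 members were called higher, where 9.86% of the 13632 genes tested were, and 0 of 8 lower, where 6.77% were. The members were chosen with earlier results of these data known, so these counts are no test of the family. Of all 28 listed ETS genes, 19 reached 1 CPM in a library, with 3 called higher and 1 lower. The lower one, SPIB, reached 1 CPM in KSFM only. All 8 members had at least 1 CPM in both libraries, and with that stricter filter the rule called 7.77% of 12768 genes higher and 5.19% lower. On the deposited TPM values (transcript levels adjusted for length) with a pseudocount of 1, the same rule called 9.28% of genes higher and 2.56% lower.

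The promoters of ELF3 and EHF are shown because these 2 members passed the 2-fold rule. Each is the 250 bases before a RefSeq start site on GRCh38.p14, read 5′ to 3′ on the gene's own strand. EHF has 2 start sites in that table, and ETS1 has no entry. The windows of ELF3 and EHF lie inside the bounds that GENCODE release 29 gives for these genes. Starts further upstream are therefore annotated there, and their promoters were not read. Capitals mark each GGAA core (either strand), a match to the kappa-B consensus, which NF-kB proteins bind (either strand), and TATAAA (gene strand).
ELF3, chr1:202010337-202010586, plus strand: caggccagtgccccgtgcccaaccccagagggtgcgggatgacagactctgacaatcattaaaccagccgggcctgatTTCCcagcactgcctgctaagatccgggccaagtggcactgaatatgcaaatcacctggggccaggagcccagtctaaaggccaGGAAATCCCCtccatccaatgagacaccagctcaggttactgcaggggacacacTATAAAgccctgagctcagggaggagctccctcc
EHF, first start site, chr11:34624007-34624256, plus strand: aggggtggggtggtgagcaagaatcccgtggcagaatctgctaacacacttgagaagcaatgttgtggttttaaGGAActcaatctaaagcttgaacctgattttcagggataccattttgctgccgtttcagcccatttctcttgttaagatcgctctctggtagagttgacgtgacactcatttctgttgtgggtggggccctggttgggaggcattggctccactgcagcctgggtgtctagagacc
EHF, second start site, chr11:34632316-34632565, plus strand: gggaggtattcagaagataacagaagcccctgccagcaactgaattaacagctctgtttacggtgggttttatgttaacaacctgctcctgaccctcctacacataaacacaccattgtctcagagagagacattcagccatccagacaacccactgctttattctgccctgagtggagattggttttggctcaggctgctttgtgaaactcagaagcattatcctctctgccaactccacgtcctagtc
ELF3 held 2 GGAA cores, from -172 to -169 on the other strand and from -88 to -85 on the gene strand, counted from the start site. The second of these cores is the start of the kappa-B match, which runs from -88 to -79. A TATAAA stood from -34 to -29. The first EHF window held 1 GGAA core, from -176 to -173, and neither of the other motifs, and the second EHF window held none of the 3.

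GGAA or its reverse, TTCC, was present in 92.7% of 35116 promoter windows of this length, and in 14 of 17 windows of the 9 members with an entry. A longer ETS site, CGGAAG or its reverse CTTCCG, which contains the core, was in 16.5% of all windows and in 0 of the 17. The kappa-B consensus was matched in 9.96% of all windows and, among the members, in the ELF3 window alone. TATAAA on the gene strand was in 6.80% of all windows and in 3 of the 17, in ELF3, ELF1 and ELF2. These matches describe letters in the windows, and no binding was measured.

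ELF3 (ENSG00000163435) lies on chromosome 1 of GRCh38, from 202007945 to 202017188 in GENCODE release 29, which lists 10 transcripts for it. Its estimated counts were 724 (KSFM) and 5574 (special medium). In CPM that is 33.6 (95% Poisson interval 31.2 to 36.1) against 329 (321 to 338), a 9.82-fold difference (9.09 to 10.6). The intervals cover counting error only, since each medium has 1 pooled library. The reads carry no molecular identifiers and may be copies of 1 molecule, so the intervals may be too narrow even for counting error. By ratio, ELF3 ranked 139 among the 13632 genes tested. Its deposited level was 20.29 TPM in KSFM and 223.56 TPM in the special medium. By level it moved from rank 6389 among all genes in the table to rank 703.

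EHF (ENSG00000135373) spans chromosome 11 from 34621093 to 34661057. It had 329 counts (KSFM) and 1099 (special medium), or 15.2 CPM (13.6 to 17.0) and 65.0 CPM (61.2 to 68.9). The ratio was 4.26-fold (3.76 to 4.83), which ranked 379 among the genes tested. Its deposited levels were 5.24 TPM and 24.93 TPM. The effective length implied by its count per TPM was 1.76 times that of ELF3, so CPM overstates EHF beside ELF3. EHF was the least abundant of the 8 measured members in both libraries.

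The ratios of ELF3 and EHF differed from each other by more than counting error. ELF3's fold was 2.30 times that of EHF (exact conditional interval 1.99 to 2.67), a comparison in which library scaling cancels. ELF3 stood at 3.87 times the level of EHF in KSFM (3.39 to 4.42) and at 8.97 times in the special medium (8.40 to 9.58).

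The other ESE and secretory members were at or near the detection limit. ELF5 (ENSG00000135374), a factor of mammary and other glandular epithelia, had 0 counts in both libraries, which at 3 counts allows up to 0.139 CPM (KSFM) and 0.177 CPM (special medium). It is the neighbour of EHF on chromosome 11, 107.3 kb away with 0 coding genes between, so adjacent ETS genes differed in whether they were detected. SPDEF (ENSG00000124664; chromosome 6, 34537802 to 34556333), which directs goblet and other secretory cell fates, had 1 count (KSFM) and 7 (special medium). That is a ratio of 8.93 with an interval from 1.15 to 402, so its size is hardly bounded. At 0.05 and 0.47 TPM it stayed below the filter.

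**Figure D1:**
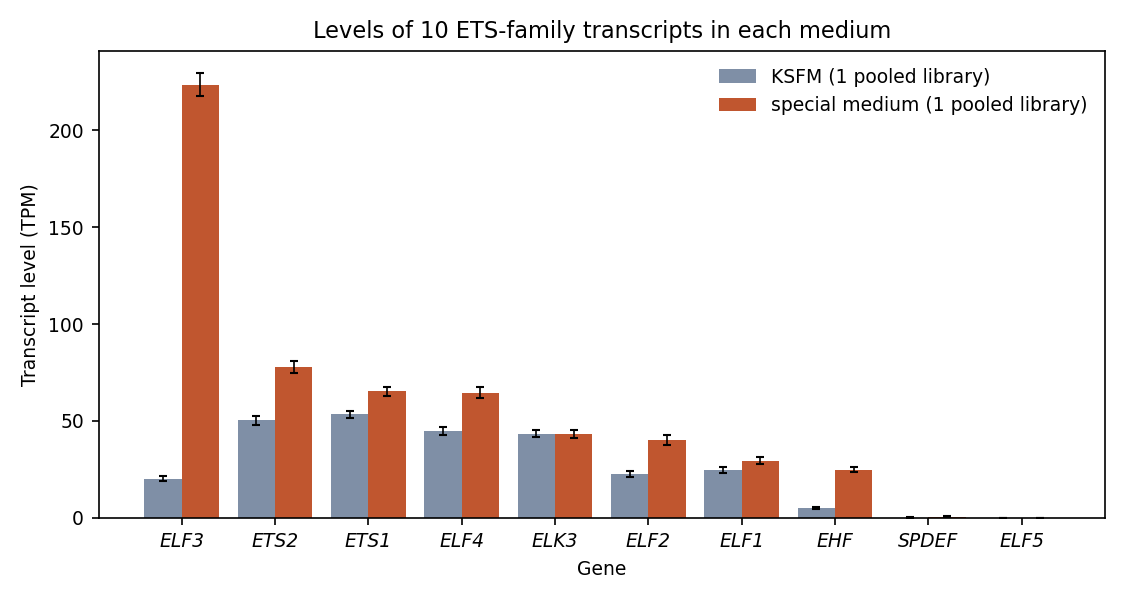
Deposited level in TPM (vertical axis) of each of the 10 genes in KSFM (grey) and the special medium (orange), 1 pooled library each, with bars for the 95% Poisson counting interval. ELF3 goes from 20.29 to 223.56 TPM, above every other member, and ELK3 stands at 43.29 and 43.13 TPM.

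ETS1 and ETS2, the founding members of the family, were among the most abundant members in both media, and neither reached 2-fold. ETS1 (ENSG00000134954; chromosome 11, 128458761 to 128587558) had 3227 counts (KSFM) and 2763 (special medium), or 53.49 and 65.21 TPM. On the count scale that is 1.09-fold (1.04 to 1.15), an interval that leaves out equality while the ratio misses 2-fold. ETS2 (ENSG00000157557; chromosome 21, 38805307 to 38824955) had 2164 and 2349 counts, 50.24 and 77.85 TPM, and a ratio of 1.38-fold (1.31 to 1.47). ETS2's fold was 1.27 times that of ETS1 (1.17 to 1.37), so the closely related pair had unequal ratios.

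ELF1, ELF2 and ELF4 form another group of related, widely expressed activators. ELF2 (ENSG00000109381; chromosome 4, 139028112 to 139177218) had the third largest ratio of the measured members. Its counts were 808 in KSFM and 1004 in the special medium, its levels 22.78 and 40.04 TPM, and its ratio 1.58-fold (1.44 to 1.74). ELF4 (ENSG00000102034; X chromosome, 130064874 to 130110716) had 2127 and 2138 counts, 44.81 and 64.48 TPM, and a ratio of 1.28-fold (1.21 to 1.36). ELF1 (ENSG00000120690; chromosome 13, 40932028 to 41061440) had 1051 and 883 counts, 24.61 and 29.53 TPM, and a ratio of 1.07-fold, whose interval of 0.979 to 1.17 holds equality. ELF2's fold was 1.48 times that of ELF1 (1.30 to 1.69). In GENCODE release 29, ELF1 and ELF2 overlap genes of the opposite strand, WBP4 and NOCT, and the strand setting of the counting is not given in the sources used here, so reads of the overlaps cannot be told apart. WBP4 had 568 and 608 counts, and NOCT 350 and 231. ELF3, ETS1 and ELK3 also have genes on the opposite strand within their bounds. Of these, MIR6090, in ETS1, had 0 counts in both libraries, and the rest were not found by symbol among the deposited genes. On the same strand ELF3 overlaps AL691482.3, ELF1 overlaps RGS17P1 and ELF2 overlaps PPP1R14BP3, likewise not found by symbol. The estimated counts of all 10 members were whole numbers, exactly as deposited, in both libraries.

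ELK3 (ENSG00000111145; chromosome 12, 96194382 to 96269835) was the single measured member with a ratio below equality. It had 2087 counts (KSFM) and 1458 (special medium), a ratio of 0.891 (0.833 to 0.953), or 1.12-fold lower. Its deposited levels of 43.29 and 43.13 TPM are nearly equal. TPM ratios sat above count ratios by 0.17 on the log2 scale in the median gene, and relative to that shift ELK3 was also lower on TPM.

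Between any 2 of the 8 measured members the difference of log2 ratios can be read without scaling. Of 28 pairs, 26 had a 95% counting interval that left out 0. The exceptions were ETS2 against ELF4, with a difference of 0.11 (-0.01 to 0.23), and ETS1 against ELF1, with 0.03 (-0.12 to 0.18). EHF stood 1.43 above ELF2 on the log2 scale (1.20 to 1.65), and that gap separated ELF3 and EHF from the other 6. Intervals of this kind leave out the variation between cultures, which pooling removed from view.

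**Figure D2:**
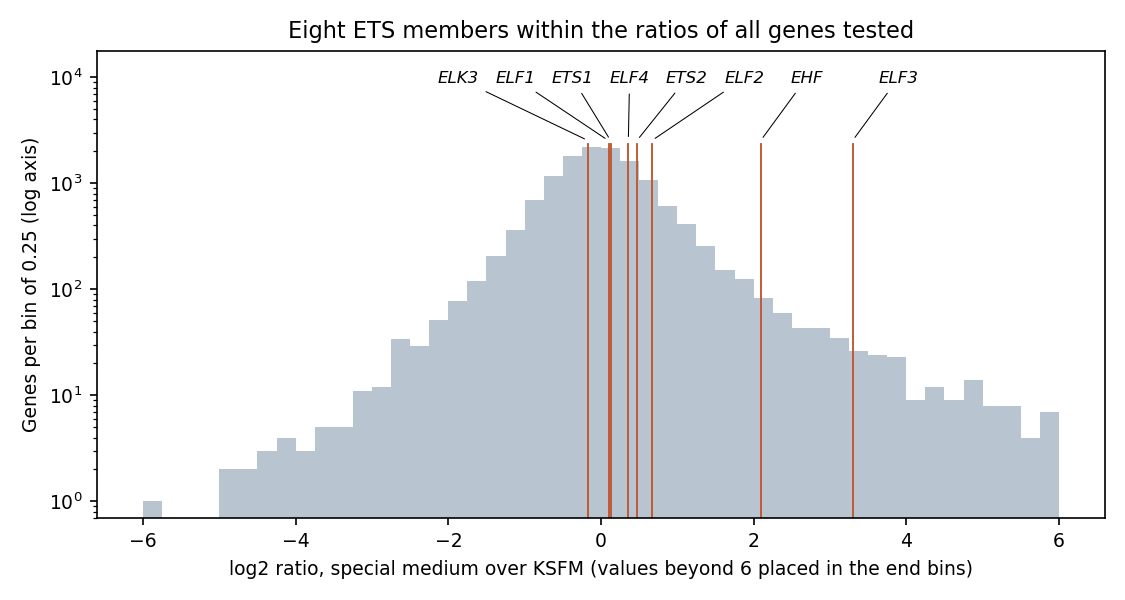
Number of genes (vertical log axis) by log2 ratio of special medium over KSFM, for 13632 genes at 1 CPM or more, with vertical lines at the 8 measured members. ELF3 at 3.30 and EHF at 2.09 lie in the upper tail, and the other 6 lie between -0.17 and 0.66.

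Over the 8 measured members the median log2 ratio was 0.41, against -0.00042 over all genes tested. At any fold, 6 of the 8 had an interval above equality, where 37.2% of all genes did, and 1 had an interval below it, where 36.7% did.

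The order of the members' levels differed between the media. In KSFM the order by TPM was ETS1, ETS2, ELF4, ELK3, ELF1, ELF2, ELF3 and EHF. Neighbours in that order did not differ beyond counting error for ELF4 and ELK3 (ratio of levels 1.04, 0.974 to 1.10) or for ELF1 and ELF2 (1.08, 0.985 to 1.19). In the special medium the order was ELF3, ETS2, ETS1, ELF4, ELK3, ELF2, ELF1 and EHF. There the level of ELF3 was 2.87 times that of ETS2 (2.74 to 3.01). Neighbours within counting error were ETS1 and ELF4 (1.01, 0.955 to 1.07) and ELK3 and ELF2 (1.08, 0.993 to 1.17). ETS1 stood at 2.64 times the level of ELF3 in KSFM (2.43 to 2.86), and ELF3 at 3.43 times the level of ETS1 in the special medium (3.27 to 3.59).

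Summed over the 10 members, the level was 264.8 TPM in KSFM and 569.2 TPM in the special medium. ELF3 alone made up 66.8% of that gain of 304.4 TPM. Without ELF3 and EHF the sum was 239.27 and 320.71 TPM, a ratio of 1.34, which includes the general upward shift of TPM ratios.

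All 28 listed ETS genes together summed to 455.62 TPM in KSFM and 809.13 TPM in the special medium. ELF3 held 4.45% of that total in KSFM and 27.6% in the special medium, going from rank 10 to rank 1 of the family. EHF held 1.15% and 3.08%. The ESE group as a whole went from 5.60% to 30.7%, while ELF1, ELF2 and ELF4 together went from 20.2% to 16.6%, and ETS1 with ETS2 from 22.8% to 17.7%. A share falls when another rises: without ELF3 in the total, ETS2 held 11.5% in KSFM and 13.3% in the special medium, and ELK3 9.94% and 7.37%.

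**Figure D3:**
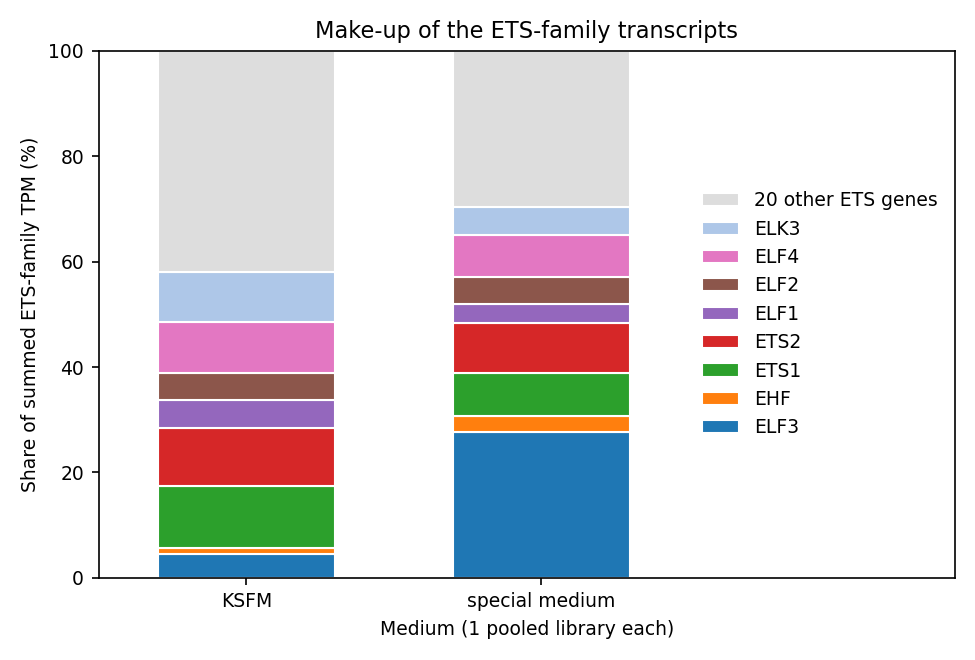
Share of the summed TPM of 28 ETS-family genes (vertical axis, percent) held by the 8 measured members and by the 20 other genes together, in each medium. The ELF3 segment goes from 4.45% in KSFM to 27.6% in the special medium.

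Among the 18 other ETS genes, 10 had at least 1 CPM in both libraries, with a median log2 ratio of 0.33. Of these, 1 was called higher and 0 lower, where 7.77% and 5.19% of all genes were. ETV6, a repressor with a self-associating pointed domain, was the higher one. It had 271 counts (KSFM) and 785 (special medium), 3.93 and 16.18 TPM, a ratio of 3.69-fold (3.21 to 4.26). SPIB, a factor of lymphoid cells, reached 1 CPM in KSFM only, on 35 and 10 counts, a ratio 2.74-fold lower (1.33 to 6.21). It stayed below 1 TPM in both media, and on TPM with a pseudocount of 1 its log2 ratio was -0.44, short of 2-fold.

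The remaining ternary complex factors stood with ELK3 below equality. ELK1 had 956 and 572 counts (29.40 and 25.12 TPM), a log2 ratio of -0.39 (-0.54 to -0.24). ELK4 had 1797 and 955 counts (14.11 and 10.50 TPM), a log2 ratio of -0.56 (-0.68 to -0.45). So all 3 ternary complex factors had intervals below equality, as 36.7% of all genes did, and none reached 2-fold.

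The PEA3 group, whose transcription is driven by FGF and ERK signals, lay on both sides of equality. ETV4 had 1316 and 1138 counts, a log2 ratio of 0.14 (0.03 to 0.26), and ETV5 had 1449 and 822, at -0.47 (-0.59 to -0.34). ETV1 had 203 and 293 counts, at 0.88 (0.62 to 1.15). The repressor ERF, which ERK exports from the nucleus, had 580 and 782 counts and a log2 ratio of 0.78 (0.63 to 0.94). Its relative ETV3 had 271 and 221 counts and a log2 ratio of 0.06 (-0.21 to 0.32), and GABPA, the ETS subunit of the GABP complex, had 889 and 997 and a log2 ratio of 0.52 (0.38 to 0.65).

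FLI1 lies 99.0 kb from ETS1 on chromosome 11, with 0 coding genes between, and is known from blood and endothelial cells. It had 327 counts (KSFM) and 436 (special medium), 7.17 and 13.65 TPM, and a log2 ratio of 0.77 (0.56 to 0.98). ERG, the neighbour of ETS2 at 143.5 kb, had 2 counts in each library. SPI1, SPIC, FEV and ETV3L had 0 counts in both, and ETV2 and ETV7 stayed below 1 CPM.

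**Figure D4:**
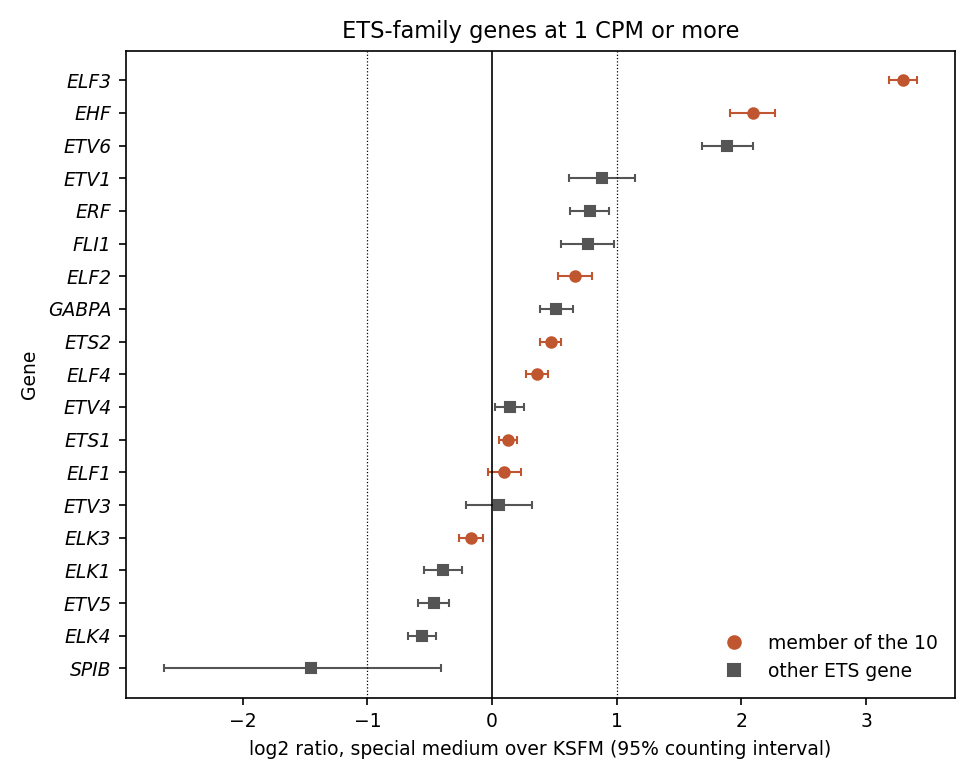
Log2 ratio of special medium over KSFM (horizontal axis) with its 95% counting interval for the 19 ETS genes at 1 CPM or more, members as orange circles and other genes as grey squares, and dotted lines at 2-fold. ELF3, EHF and ETV6 lie beyond 2-fold upward, and SPIB, with the widest interval, beyond it downward.

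Markers were read for the labelled cell type and for cells in which ETS genes are abundant. Of 7 epithelial markers 6 were well detected in both libraries: CDH1 had 507 and 405 CPM, EPCAM 266 and 350, KRT5 82.4 and 54.4, KRT8 379 and 1054, KRT18 842 and 1638, and ITGB4 195 and 550. The basal keratin KRT14 had 4 and 10 counts. The corneal keratins were near absent, with KRT12 at 0 counts in both and KRT3 at 0 and 1, and the corneal enzyme gene ALDH3A1 had 5 and 14 counts, while the corneal regulator PAX6 had 69 and 73 counts and TKT 216 and 613 CPM. Of 8 endothelial markers only CDH5 passed 1 CPM, on 3 and 236 counts, and PECAM1 had 2 and 15. The list's summed level was 1.76 CPM (KSFM) and 16.4 CPM (special medium), of which CDH5 made up 13.9 CPM, with TEK at 0 in both. Of 7 blood cell markers, summed at 59.4 and 64.1 CPM, CD68 made up most, at 57.0 and 59.8 CPM. CD3E, MS4A1 and HBB were at 0 in both libraries and PTPRC had 1 and 0 counts, while CD14 had 2 and 62 and LYZ 48 and 11. Fibroblast markers summed to 8.06 and 8.63 CPM, of which COL1A1 made up 7.69 and 8.45 CPM, with LUM and THY1 at 0 in both. The part of other cell types in the ETS ratios was not tested.

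Unless stated otherwise, context lists are counted over genes with at least 1 CPM in both libraries, so that no gene enters through 1 library alone. With that filter 7.77% of all genes were called higher and 5.19% lower. Of 10 ETS partners and regulators, all so measured, 1 was called higher and 0 lower, and the list's median log2 ratio was 0.06. The gene called was MAPK3, which encodes an ERK kinase that phosphorylates ETS factors, at 2.66-fold (2.46 to 2.88) on 935 and 1950 counts. Of 9 measured ERK feedback genes 1 was higher, PHLDA1 at 2.19-fold (2.08 to 2.32), with 0 lower and a median of -0.35. SPRY1, which reached 1 CPM in the special medium only, had 21 and 77 counts. At any fold, 5 of all 10 listed feedback genes had an interval below equality, where 36.7% of all genes did. Another 4 had one above it, where 37.2% did. SPRY1, 1 of these 4, enters through the special medium alone. Of 8 immediate early genes driven by SRF and ELK factors 1 was higher, the AP-1 gene JUNB at 2.20-fold (2.07 to 2.34), with 0 lower and a median of 0.37.

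Genes that earlier studies link to ELF3 or EHF had 7 of 13 measured, with a median of 0.49. Of these, 2 were higher and 0 lower, where 7.77% and 5.19% of all genes were. The cytokine gene IL6 was 4.14-fold higher (3.84 to 4.47), on 894 and 2902 counts. The prostaglandin synthase gene PTGS2 was 3.54-fold higher (2.83 to 4.46), on 107 and 297. The collagenase gene MMP13 had 5 and 17 counts, reaching 1 CPM in the special medium only. With 1 CPM in either library as the filter, MMP13 enters through the medium where it is higher. With MMP13 so counted in, 5 of 8 genes had an interval above equality at any fold, where 37.2% of all genes did. Another 2, TNFRSF10B and CDH1, had one below it, where 36.7% did, and that of TGFBR2 held equality. Whether the genes of this list follow ELF3 or EHF was not tested. The keratinocyte genes of that list were not measured: TGM3 had 0 counts in both media, and SPRR2A and KRT4 had 0 and 1 each.

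Of 10 goblet cell genes linked to SPDEF 1 was measured. The disulfide isomerase gene AGR2 was 5.23-fold lower (4.76 to 5.76), from 3331 to 499 counts, and FCGBP had 23 and 10. AGR3, FOXA3 and TFF3 were at 0 counts in both libraries.

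Protease and plasminogen system genes linked to ETS1 or ETS2 had 6 of 10 measured, with a median of 1.03. Of these, 4 were higher and 0 lower, where 7.77% and 5.19% of all genes were. The urokinase gene PLAU was 6.08-fold higher (5.84 to 6.33) and the collagenase gene MMP1 5.25-fold (4.03 to 6.91), the latter on 70 and 288 counts. The urokinase receptor gene PLAUR was 2.06-fold higher (1.87 to 2.27) and the inhibitor gene TIMP1 2.02-fold (1.90 to 2.15). The gelatinase gene MMP9 reached 1 CPM in KSFM only, on 40 and 15 counts, a ratio 2.09-fold lower (1.13 to 4.07). MMP13 is in this list too. With 1 CPM in either library as the filter, 8 genes of the list were measured. Of these, 5 were called higher and 1, MMP9, lower, where 9.86% and 6.77% of all genes were. MMP13 and MMP9 each entered through the library where it was higher, so neither adds to the counts of 4 and 0.

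Other epithelial transcription factors had 9 of 11 measured, with a median of 0.72. Of these, 3 were higher and 0 lower, where 7.77% and 5.19% of all genes were. The higher ones were KLF4 (2.59-fold, 2.28 to 2.95), a zinc finger factor of the ocular surface, OVOL1 (2.54-fold, 2.13 to 3.05), a factor of epidermal differentiation, and GRHL3 (2.39-fold, 1.66 to 3.48), a barrier regulator. The ratios of ELF3 and EHF exceeded those of all 9 measured factors. TP63, the master factor of stratified epithelia, had 5 and 13 counts.

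**Figure D5:**
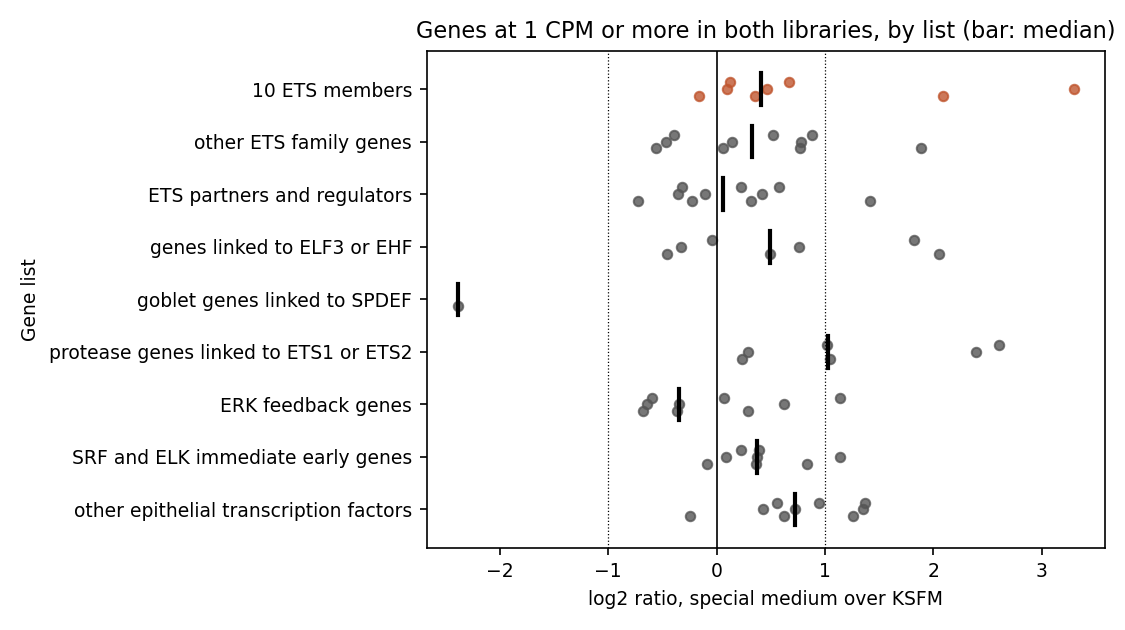
Log2 ratio of special medium over KSFM (horizontal axis) for each gene at 1 CPM or more in both libraries, by list, with a black bar at the list's median and dotted lines at 2-fold. The 10 ETS members have 8 points, of which EHF and ELF3 lie beyond 2-fold, and the proteases have the highest median of the 9 lists plotted, 1.03.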

How the data were processed

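Per the labels, poly(A) RNA pooled from 3 cultures per medium was sequenced from stranded libraries. Tools named in the submitters' processing notes are RSEM and HISAT2 2.1.0, beside fastp 0.20.0 and FastQC 0.11.9, with GRCh38 as the build; which annotation and strand setting were used is not stated there. The authors deposited estimated counts and TPM values for 26506 gene symbols. Estimated counts were rounded to whole numbers (totals 21604652 in KSFM and 16900472 in the special medium) and scaled by edgeR 4.0.16 TMM factors. Ratios carry 95% Clopper-Pearson intervals, exact given the summed counts of both libraries. Members and gene lists were chosen with earlier results of these data known. The text names every member, ETS genes past the rule or at 10 CPM, markers at 10 CPM and defining markers at 0. Of each context list it names up to 4 genes by size of ratio past the rule. PAX6, CD14, LYZ, FCGBP, SPRY1, NOCT, WBP4, TNFRSF10B, TGFBR2 and genes below 1 CPM were named after their values were seen. A filter of 1 CPM in both libraries was chosen after seeing the data. MRTFA, MRTFB and COP1 were matched by older symbols. Promoter sequences are RefSeq's. With 2 libraries no likeness of pattern between genes can be measured. The method was tested on simulated Poisson counts. These hold no variation between cultures and no copied reads, so that test does not cover such errors. Alternatives were scaling by upper quartile, by total count or by DESeq2 1.42.0 size factors, ratios of TPM, other filters, other call rules and counts rounded down. Computation used R 4.3.3, Python 3.11.15 and scipy 1.17.1. A further blood cell marker is not reported here.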

Additional observations from a re-analysis of the deposited data

How the results depend on the processing

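ELF3 and EHF were called higher and no member lower under each of 12 alternatives, the last of which, 1 CPM in both libraries, was chosen after seeing the data. Without an expression filter SPDEF was called as well, giving 3. The log2 ratio ranged from 3.25 to 3.46 for ELF3, from 1.91 to 2.23 for EHF and from -0.19 to -0.01 for ELK3, and no measured ETS gene changed sign under another scaling. SPIB was not called with a 4-fold rule, with an interval wholly beyond 2-fold or with 1 CPM in both libraries. Nor was it called on TPM with a pseudocount of 1, centred or not, and a filter of 10 CPM left it out. The members' median log2 ratio of 0.41 was 0.57 on TPM with a pseudocount of 1 and 0.58 with 0.1, where the median of all genes was itself 0.15 and 0.16. The share of all genes called lower, 6.77%, was 2.56% and 4.44% on those scales, 3.93% after centring and 4.28% with a filter of 10 CPM. A 4-fold rule called 2.99% of genes higher and 1.19% lower, and an interval wholly beyond 2-fold 6.14% and 2.90%. No paired analysis was possible because each medium has 1 library. Depth limits SPDEF and ELF5.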
